A study of Mus musculus with 40 samples.

Results

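The enzymes that break down fatty acids in mitochondria and peroxisomes were followed as a group of genes across the liver RNA of 40 mice. The group was listed as 36 genes, and it covered the carnitine shuttle, the mitochondrial and peroxisomal spirals of β-oxidation, the auxiliary enzymes for unsaturated acids, the electron transfer flavoprotein, peroxisome entry and division, acyl-CoA activation and ketone body enzymes. A member was taken as measured when a probe set annotated to its symbol alone reached 4 on the log2 scale on at least 3 arrays of any of the 10 groups, and the probe set of highest mean stood for the gene. By this rule 35 of the 36 genes were measured, out of 9695 genes in all, and Acsl1 was not analysed here. The 35 genes had 57 probe sets that passed the minimum, and 15 of them had more than 1. The group is defined by function and not by cell type, and the levels are those of whole liver. All values are log2 expression levels of single probe sets, and a level is compared only with the level of the same probe set in other mice.

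Male mice of about 12 weeks, Wt or Nrf2-null, on a C57BL/6J background, were given by gavage either vehicle (Cremophor-EL, DMSO and PBS), D3T at 300 µmol/kg b.wt. or CDDO-Im at 3, 10 or 30 µmol/kg b.wt. Each mouse had 3 treatments, 1 every other day over 5 days, and the liver was taken 24 h after the last. All mice ate a purified AIN-76A diet without ethoxyquin, and the null mice came from inbred Nrf2-heterozygous parents and lacked Nrf2 in every tissue. There were 4 mice in each of the 10 groups, and each mouse had its own Affymetrix array. D3T is a dithiolethione and CDDO-Im a synthetic oleanane triterpenoid, and both activate Nrf2, the transcription factor that drives antioxidant and detoxification genes. The comparisons asked which of the oxidation genes responded to each agent, and whether the level or the response differed where Nrf2 was missing. The labels give the mice of the D3T and CDDO-Im 30 groups animal numbers in another range than those of the vehicle, CDDO-Im 3 and CDDO-Im 10 groups, so that range and treatment cannot be told apart in a comparison across the ranges.

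In liver, long-chain fatty acids are activated to acyl-CoA, passed to carnitine by CPT1 at the outer mitochondrial membrane, carried inward by the translocase SLC25A20 and returned to CoA by CPT2. Each turn of the mitochondrial spiral runs through an acyl-CoA dehydrogenase, a hydratase, a hydroxyacyl-CoA dehydrogenase and a thiolase, and the electrons of the first step reach the respiratory chain through the electron transfer flavoprotein and its dehydrogenase. Peroxisomes shorten very long and branched chains and bile acid precursors with oxidases, bifunctional enzymes and thiolases of their own. Many of these genes are known targets of the fatty acid receptor PPARα, and they are known to be induced by fasting.

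The promoters of 4 members are shown because these genes carry the comparisons below: Ehhadh, Acadl and Acadvl differed between the genotypes under CDDO-Im, and Slc25a20 differed in its response. Each line is the 250 bases before the RefSeq transcription start in GRCm38.p6, read 5′ to 3′ on the strand of the gene. Capitals mark the AGGTCA hexamer of nuclear receptors or the TGACNNNGC core of the antioxidant response element, searched on both strands. The windows lie at chr1:66863310-66863559 on the minus strand for Acadl, at chr11:70015429-70015678 on the minus strand for Acadvl, at chr16:21787835-21788084 on the minus strand for Ehhadh and at chr9:108661886-108662135 on the plus strand for Slc25a20.
Acadl: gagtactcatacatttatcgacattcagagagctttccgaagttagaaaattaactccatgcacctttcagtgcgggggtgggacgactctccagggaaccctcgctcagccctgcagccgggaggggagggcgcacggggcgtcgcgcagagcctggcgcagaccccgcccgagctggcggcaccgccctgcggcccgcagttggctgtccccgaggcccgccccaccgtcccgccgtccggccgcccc
Acadvl: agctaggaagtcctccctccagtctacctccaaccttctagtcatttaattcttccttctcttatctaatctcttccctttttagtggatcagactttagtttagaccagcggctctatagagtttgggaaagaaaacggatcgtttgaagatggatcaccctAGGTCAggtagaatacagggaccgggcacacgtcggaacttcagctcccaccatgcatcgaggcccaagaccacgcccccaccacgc
Ehhadh: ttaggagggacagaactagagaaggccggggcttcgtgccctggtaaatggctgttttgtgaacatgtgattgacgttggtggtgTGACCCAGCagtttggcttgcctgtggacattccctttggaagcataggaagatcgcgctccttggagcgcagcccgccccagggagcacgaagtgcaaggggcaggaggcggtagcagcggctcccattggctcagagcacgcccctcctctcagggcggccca
Slc25a20: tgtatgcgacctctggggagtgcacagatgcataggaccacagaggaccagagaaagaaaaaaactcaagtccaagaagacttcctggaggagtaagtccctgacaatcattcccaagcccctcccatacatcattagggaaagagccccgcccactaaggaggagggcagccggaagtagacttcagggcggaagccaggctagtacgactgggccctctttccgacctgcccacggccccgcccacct
The hexamer in the Acadvl window lay 87 to 82 bases before the start, and the TGACNNNGC match in the Ehhadh window lay 165 to 157 bases before it. The Acadl window held 4 GC boxes (GGGCGG on either strand) and the Slc25a20 window held 3. Of the 29 members with a window, 5 held the hexamer (Acadm, Acadvl, Cpt1a, Scp2 and Slc27a2), against 14% of all 32851 windows. The TGACNNNGC core stood in 2 members, Acox2 and Ehhadh, against 10.2% of all windows. A GC box stood in 18 members against 32.7% of windows, and a CCAAT box in 14 members against 33.8%. The direct repeat of the hexamer with 1 base between was in none of the 29 members and in 0.0335% of windows. These matches are letters in a window of 250 bases and were not tested for binding.

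The labels held up against the targeted gene. One probe set of Nfe2l2, the gene of Nrf2, lay between 10.77 and 11.75 in the 20 Wt mice and between 2.72 and 3.10 in the 20 null mice, while a second probe set of the gene overlapped between the genotypes. Of 9 Nrf2 target genes, 4 rose in Wt mice under D3T, 5 under CDDO-Im 10 and 7 under CDDO-Im 30. The shares of all genes that rose were 2.64%, 5.06% and 2.81%. The 7 hepatocyte markers were all measured, with group means between 15.10 and 15.24. Arrays correlated at 0.983 to 0.998 over all probe sets. One mouse stood apart before any comparison: replicate 4 of the null D3T group was the lowest of its 4 in 27 of the 35 members. A score of clock genes, the mean of 7 genes that peak towards the evening minus the mean of 5 that peak towards the morning, also differed between groups and mice. In Wt mice its mean was −2.76 under vehicle, −0.25 under D3T, −2.78 under CDDO-Im 3, +2.78 under CDDO-Im 10 and −2.37 under CDDO-Im 30. In bulk liver, fewer cells of a type and less RNA per cell cannot be told apart.

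In Wt mice 7 of the 35 genes fell and 1 rose under CDDO-Im 30, set against the 4 vehicle mice that all Wt doses share. Those that fell were Decr1, Cpt2, Etfb, Acadvl, Acadl, Slc27a2 and Amacr. The share of all genes that fell was 20.8% and the share that rose was 2.81%, so in this fit the members fell about as often as genes at large. With the fit to the vehicle and CDDO-Im 30 mice alone, 17 members fell and 4 rose, against 21.5% and 3.51% of all genes. The median change was −0.19 for the members and −0.16 for all genes. With quantile normalization 7 members fell and 1 rose, against 8.27% and 4.49% of all genes. Acadl and Acadvl are the long-chain and very long-chain acyl-CoA dehydrogenases, which open the mitochondrial spiral, and Decr1 is the mitochondrial 2,4-dienoyl-CoA reductase, which lets polyunsaturated chains re-enter it.

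Decr1 read 13.21, 13.13, 13.18 and 13.14 in the 4 vehicle mice and 12.60, 12.52, 12.71 and 12.37 in the CDDO-Im 30 mice. The CDDO-Im 30 mice all lay below the vehicle mice, and Decr1 fell by 0.61 ± 0.14 (SE, n = 4 per group, limma adjusted p = 0.0016), to 0.655 of its vehicle level. The second Decr1 probe set fell by 1.00. Acadvl read 13.15, 13.21, 13.11 and 13.16 under vehicle and 12.88, 12.81, 12.81 and 12.80 under CDDO-Im 30, again without overlap, and fell by 0.33 ± 0.06 (limma adjusted p = 0.00041). Acadl read 12.92, 12.85, 12.91 and 13.02 under vehicle and 12.65, 12.53, 12.67 and 12.65 under CDDO-Im 30. It fell by 0.30 ± 0.07 (limma adjusted p = 0.0020), and the groups did not overlap.

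Cpt2, the inner carnitine palmitoyltransferase, read 11.72, 11.80, 11.90 and 11.63 under vehicle, 10.94, 11.30, 11.49 and 11.49 under CDDO-Im 10 and 11.26, 11.35, 11.28 and 11.54 under CDDO-Im 30. Both treated groups lay below the vehicle mice, and Cpt2 fell by 0.46 ± 0.11 at 10 µmol/kg (limma adjusted p = 0.0052) and by 0.41 ± 0.11 at 30 µmol/kg (limma adjusted p = 0.0089). Etfb, the β subunit of the electron transfer flavoprotein, read 13.15, 12.99, 13.13 and 13.00 under vehicle and 12.66, 12.77, 12.67 and 12.74 at CDDO-Im 30. It fell by 0.36 ± 0.07 without overlap (limma adjusted p = 0.00027). Slc27a2, a very long-chain acyl-CoA synthetase and fatty acid transporter, fell by 0.27 ± 0.07. Amacr, the racemase of branched acyl chains, fell by 0.25 ± 0.09, and its call was lost without any 1 of the 8 mice (adjusted p up to 0.11).

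Hsd17b4, the peroxisomal D-bifunctional enzyme, moved the other way. It read 13.74, 13.69, 13.75 and 13.86 under vehicle, between 13.86 and 14.20 under CDDO-Im 10, and 14.08, 14.08, 14.07 and 14.10 under CDDO-Im 30. The CDDO-Im 30 mice all lay above the vehicle mice, and the lowest CDDO-Im 10 mouse overlapped them. Hsd17b4 rose by 0.28 ± 0.09 at 10 µmol/kg (limma adjusted p = 0.021) and by 0.32 ± 0.09 at 30 µmol/kg (limma adjusted p = 0.0064). Its other probe set differed from vehicle by 0.02 and 0.09, so the rise stood on 1 probe set of the 2.

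At CDDO-Im 10 the members' median change was −0.06, against −0.08 for all genes, and 3 members fell and 1 rose. Beside Cpt2 those that fell were Etfb, by 0.18 ± 0.07 (limma adjusted p = 0.049), and Scp2, whose product holds the peroxisomal thiolase for branched chains, by 0.15 ± 0.05 (limma adjusted p = 0.034). The shares of all genes were 12.4% lower and 5.06% higher. With the fit to those 2 groups alone 6 members fell and 3 rose, against 11.0% and 5.42% of all genes. The calls of Etfb and Scp2 were each lost without any of 5 of the 8 mice and that of Hsd17b4 without any of 4, while that of Cpt2 held throughout. The other 3 probe sets of Scp2 differed from vehicle by 0.22 to 0.68 in the opposite direction. Cpt1a, the outer and rate-controlling carnitine palmitoyltransferase, was 0.69 ± 0.26 above vehicle at CDDO-Im 10 and did not pass the test, with all 3 of its probe sets above vehicle.

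At CDDO-Im 3 no member passed the test in Wt mice by limma, and 0.474% of all genes did, while 14 of the 35 members and 10.5% of all genes had an unadjusted p under 0.05. In all, 31 of the 35 lay below the vehicle mean and 4 above, while 46.1% of all genes lay above it. The median was −0.16 for the members and −0.01 for all genes. Crat, the carnitine acetyltransferase, read 7.28, 7.27, 7.33 and 7.37 under vehicle and 6.18, 6.36, 6.55 and 7.47 under CDDO-Im 3. Replicate 4 lay above the vehicle mice and the other 3 below them. Without replicate 4, Crat fell by 0.95 ± 0.18 (limma adjusted p = 0.0049) and Pex11a, which divides peroxisomes, by 0.93 ± 0.24 (limma adjusted p = 0.043), with 0.433% of all genes lower and 0.619% higher in that fit. Leaving out each of the 8 mice in turn gave 0 to 2 members, so these 2 were the highest count. The clock score of the CDDO-Im 3 mice, −2.99 to −2.48, overlapped that of the vehicle mice, −2.84 to −2.54. The scores of the other Wt treatments did not overlap those of vehicle. They lay at +2.30 to +3.99 at CDDO-Im 10, −2.52 to −2.26 at CDDO-Im 30 and −1.43 to +0.49 under D3T. The part of the clock in the changes from vehicle was not tested.

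Markers of other cells are given beside these doses. The sum of the 5 lymphocyte and neutrophil markers with a probe set, of which S100a8 and S100a9 alone passed the minimum, lay at 5.65 to 7.69 in the vehicle mice, at 5.89 to 10.42 at CDDO-Im 3 and at 8.42 to 9.71 at CDDO-Im 30, where S100a8 and S100a9 rose. The sum of the 6 Kupffer cell markers lay at 13.09 to 13.74 under vehicle, 13.37 to 14.13 at CDDO-Im 3 and 13.51 to 13.82 at CDDO-Im 30, and 1 of the 6, Marco, rose by 3.49. Of the hepatocyte markers, 2 of 7 fell at CDDO-Im 30, Cps1 by 0.22 and Apoa1 by 0.15, against 20.8% of all genes. The sum of the 5 endothelial markers lay at 11.91 to 12.13 under vehicle, 11.80 to 11.96 at CDDO-Im 3, 11.55 to 11.69 at CDDO-Im 10 and 11.62 to 11.85 at CDDO-Im 30, and none of the 4 measured passed the test. The pancreas marker Cela1 lay at 9.76 to 10.09 under vehicle and 8.68 to 9.02 at CDDO-Im 30 and did not pass. The part of these cells in the members' changes was not tested. With each array centred on its median, the members called at CDDO-Im 30 were 1 lower (Decr1, by 0.44 ± 0.13) and 3 higher (Hsd17b4, Acox2 and Decr2), and the share of calls that were higher over all genes went from 11.9% to 53.9%. Of all genes, 5.61% were then lower and 6.57% higher. At CDDO-Im 10 the same centring left 2 higher (Cpt1a and Hsd17b4) and 1 lower (Cpt2), and the share of calls that were higher went from 28.9% to 43.8%. Of all genes, 7.1% were then higher and 9.09% lower.

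**Figure D1:**
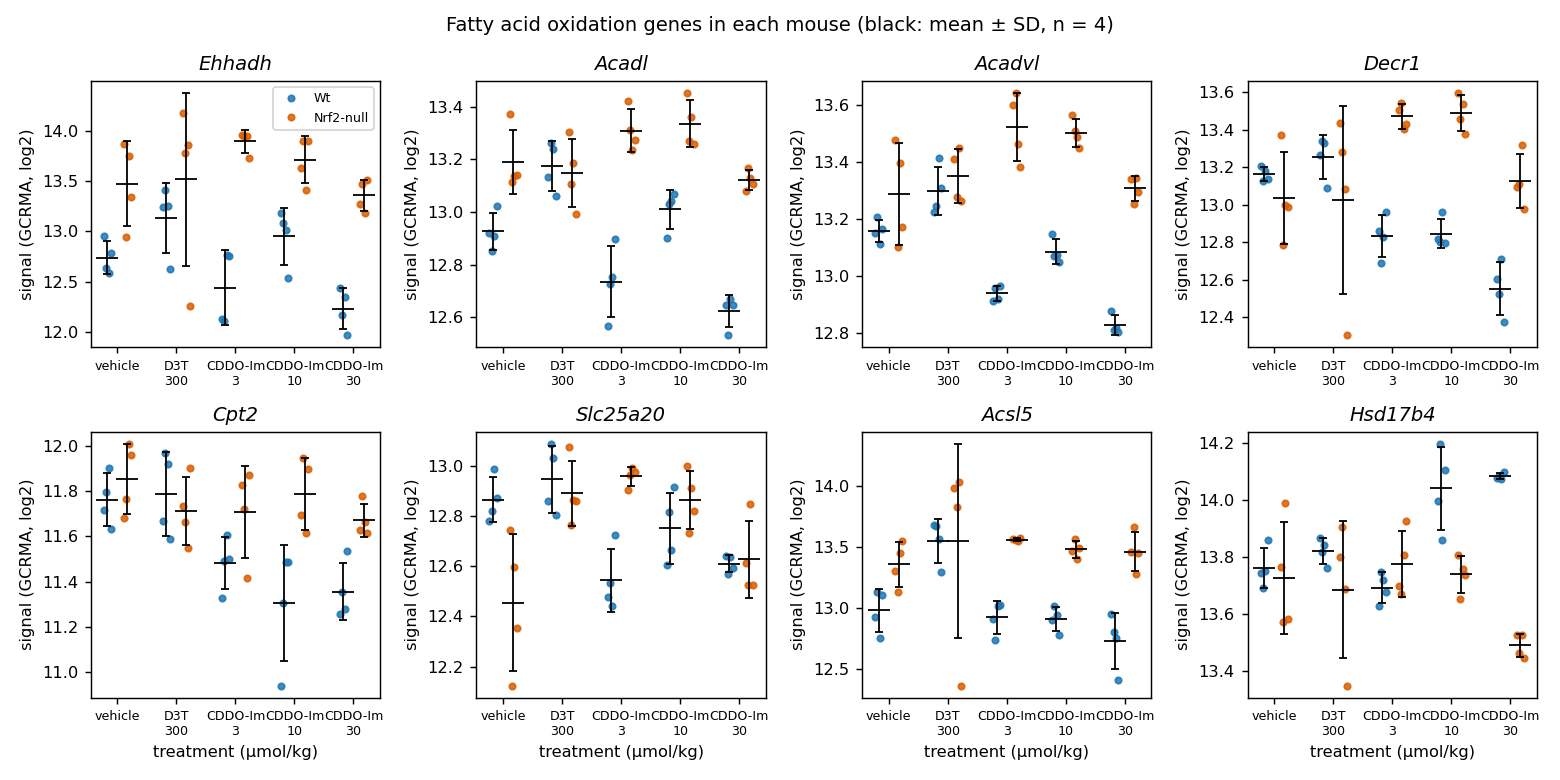
Log2 level of 8 members in each mouse, by genotype and treatment; points are mice, and black marks are the mean ± SD of 4 mice. The Nrf2-null mice lay above the Wt mice for Ehhadh, Acadl, Acadvl and Decr1 at each CDDO-Im dose, and the low null D3T point of Ehhadh, Decr1, Acsl5 and Hsd17b4 is replicate 4.

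Under CDDO-Im the genotypes differed in these genes. Nrf2-null mice had higher levels than Wt mice of 14 members at CDDO-Im 3, 12 at CDDO-Im 10 and 12 at CDDO-Im 30. The share of all genes that was higher in null mice was 4.67%, 11.2% and 31.7% at the 3 doses. At CDDO-Im 3 the members thus passed far above the share of genes at large, and at CDDO-Im 30 they passed about as often as it. In the other direction 0, 1 and 5 members were lower in null mice, against 4.93%, 3.33% and 6.87% of all genes. With quantile normalization 11 members were higher and 5 lower at CDDO-Im 30, against 17.8% and 12% of all genes. These comparisons were chosen after the data had been seen, and the members with earlier results of these data known. The excess over all genes is therefore a description and not a test. The members also lay at higher levels than most genes. Their group means were 12.46 to 12.84, and the array medians of the kept probe sets were 7.50 to 7.86.

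Ehhadh, the peroxisomal L-bifunctional enzyme and a classical PPARα target, differed most. At CDDO-Im 3 it read 12.13, 12.11, 12.77 and 12.75 in Wt mice and 13.96, 13.95, 13.95 and 13.72 in null mice, a difference of 1.45 ± 0.26 or 2.74-fold (limma adjusted p = 0.00034). At CDDO-Im 10 it read 13.18, 13.08, 13.02 and 12.54 in Wt mice and 13.63, 13.90, 13.41 and 13.90 in null mice, a difference of 0.76 ± 0.26 (limma adjusted p = 0.043). At CDDO-Im 30 it read 12.43, 12.17, 12.35 and 11.97 in Wt mice and 13.28, 13.47, 13.18 and 13.51 in null mice, a difference of 1.13 ± 0.26 or 2.18-fold (limma adjusted p = 0.00090). The genotypes did not overlap at any of the 3 doses, but the call at CDDO-Im 10 was lost without any of 7 of the 8 mice (adjusted p up to 0.14). Under vehicle, Ehhadh read 12.95, 12.64, 12.58 and 12.78 in Wt mice and 13.87, 12.94, 13.75 and 13.34 in null mice, which overlapped and did not pass the test (a difference of 0.74 ± 0.26, limma adjusted p = 0.059).

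Acadvl was higher in null mice by 0.58 ± 0.06 at CDDO-Im 3 (limma adjusted p = 8.4e-08), by 0.42 ± 0.06 at CDDO-Im 10 and by 0.48 ± 0.06 at CDDO-Im 30 (limma adjusted p = 7.5e-07). Its null mice read 13.60, 13.64, 13.46 and 13.38 at CDDO-Im 3 against 12.91, 12.96, 12.92 and 12.96 in Wt mice. At CDDO-Im 30 they read 13.34, 13.25, 13.34 and 13.29 against 12.88, 12.81, 12.81 and 12.80, and at neither dose did the genotypes overlap. Acadl was higher by 0.57 ± 0.07 at CDDO-Im 3, with null mice at 13.42, 13.31, 13.23 and 13.27 and Wt mice at 12.57, 12.72, 12.75 and 12.90. At CDDO-Im 10 the difference was 0.32 ± 0.07, and at CDDO-Im 30 it was 0.50 ± 0.07, with null mice at 13.08, 13.17, 13.13 and 13.11. The calls of Acadl and Acadvl held without any 1 mouse at all 3 doses.

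Decr1 was higher in null mice by 0.64 ± 0.14 at CDDO-Im 3, 0.65 ± 0.14 at CDDO-Im 10 and 0.57 ± 0.14 at CDDO-Im 30. At CDDO-Im 3 it read 13.51, 13.54, 13.40 and 13.43 in null mice and 12.86, 12.69, 12.83 and 12.96 in Wt mice. At CDDO-Im 10 the null mice read 13.60, 13.46, 13.54 and 13.38 and the Wt mice 12.82, 12.80, 12.96 and 12.80. Both probe sets of Decr1 had the same direction at each dose, and the genotypes did not overlap.

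The electron transfer members moved as a set of 3. Etfa and Etfb, the subunits of the flavoprotein, and Etfdh, its ubiquinone oxidoreductase, were all higher in null mice at each of the 3 doses, by 0.18 to 0.42. Etfdh read 12.90, 12.83, 12.75 and 12.98 in null mice and 12.43, 12.60, 12.55 and 12.52 in Wt mice at CDDO-Im 3. At CDDO-Im 30 it read 12.80, 12.82, 13.01 and 12.75 against 12.47, 12.39, 12.50 and 12.33, a difference of 0.42 ± 0.09. The genotypes did not overlap in either. Etfb read 13.24, 13.21, 13.05 and 13.08 in null mice and 12.90, 12.98, 12.99 and 12.75 in Wt mice at CDDO-Im 3, and 13.08, 13.29, 13.28 and 13.22 against 12.98, 12.79, 12.93 and 12.83 at CDDO-Im 10. Here too every null mouse lay above every Wt mouse. Etfa at CDDO-Im 10, the smallest of these differences, lost its call without any of 5 of the 8 mice. At CDDO-Im 3 the call of Etfb was lost without null replicate 1 or 2 or Wt replicate 4, and that of Etfdh without null replicate 4 or Wt replicate 1.

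Acaa2, the mitochondrial thiolase, and Acsl5, a long-chain acyl-CoA synthetase, were also higher in null mice at the 3 doses. Acaa2 differed by 0.30, 0.32 and 0.40. Its call at CDDO-Im 3 was lost without null replicate 1 or 4 or Wt replicate 1, and its calls at CDDO-Im 10 and 30 held without any 1 mouse. With the mean of its kept probe sets, Acaa2 lost its calls at CDDO-Im 3 and 10 and kept that at CDDO-Im 30. Acsl5 read 13.56, 13.55, 13.54 and 13.57 in null mice and 12.91, 12.73, 13.02 and 13.02 in Wt mice at CDDO-Im 3, a difference of 0.64 ± 0.20. At CDDO-Im 30 it read 13.46, 13.66, 13.27 and 13.45 against 12.95, 12.80, 12.75 and 12.41, a difference of 0.73 ± 0.20 (limma adjusted p = 0.0039). The groups did not overlap, but its calls at CDDO-Im 3 and CDDO-Im 10 were lost without 7 and 8 of the 8 mice in turn.

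In all, 9 members were higher in null mice at every CDDO-Im dose: Acadl, Acadvl, Acaa2, Decr1, Etfa, Etfb, Etfdh, Ehhadh and Acsl5. That was 25.7% of the 35 members, against 202 genes or 2.08% of the 9695 tested. The 3 comparisons share no mice, but they share the model's estimate of spread for each gene. Members and comparisons were chosen with results known, so this excess too is a description. With arrays centred on their medians the number was 3 (Acadl, Acadvl and Decr1), or 8.57%, against 1.03% of all genes. The median difference of all genes was +0.01 at CDDO-Im 3, +0.10 at CDDO-Im 10 and +0.19 at CDDO-Im 30, and that of the members was +0.27, +0.25 and +0.20. Centring left the calls at CDDO-Im 3 at 14 higher and 0 lower, against 5.09% and 5.32% of all genes. At CDDO-Im 10 it left 6 higher and 2 lower (Cpt1a and Hsd17b4), and the share of higher calls over all genes went from 77.1% to 50.7%. Of all genes, 5.71% were then higher and 5.55% lower. At CDDO-Im 30 centring left 5 higher (Acadl, Acadvl, Decr1, Ehhadh and Acsl5) and 6 lower (Hadh, Decr2, Acox2, Hsd17b4, Acaa1a and Pex11a). The share of higher calls over all genes went from 82.2% to 39.2%. Of all genes, 11.9% were then higher and 18.4% lower, and the median was −0.02 for the members and −0.04 for all genes.

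Other members passed at 1 or 2 of the doses. At CDDO-Im 3, Crat was higher in null mice by 0.75 ± 0.20, Eci2, an enoyl-CoA isomerase, by 0.56 ± 0.15, Acat1, the mitochondrial acetoacetyl-CoA thiolase, by 0.43 ± 0.09, Slc25a20 by 0.41 ± 0.10 and Acadm, the medium-chain dehydrogenase, by 0.35 ± 0.08. Crat overlapped between the genotypes through Wt replicate 4, and its call was lost without Wt replicate 1 or 2, as that of Eci2 was without Wt replicate 1. At CDDO-Im 10, Cpt2 was higher by 0.48 ± 0.11, Slc27a2 by 0.28 ± 0.07 and Scp2 by 0.19 ± 0.05. At CDDO-Im 30, Cpt2 was higher by 0.32 ± 0.11, Acat1 by 0.25 ± 0.09 and Scp2 by 0.16 ± 0.05. The call of Cpt2 at CDDO-Im 30 was lost without null replicate 2 or Wt replicate 1 or 3, and that of Acat1 without any of 4 mice. Scp2 lost its call without Wt replicate 4 at CDDO-Im 10 and without null replicate 3 at CDDO-Im 30. The mean over all 4 kept probe sets of Scp2 pointed the other way at both doses, by −0.32 and −0.48.

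Of the 8 genes of the peroxisomal spiral at CDDO-Im 30, Hsd17b4, Acaa1a and Acox2 were lower in null mice, Ehhadh and Scp2 were higher and 3 did not pass. Hsd17b4 read 13.53, 13.46, 13.53 and 13.45 in null mice against 14.07 to 14.10 in Wt mice, a difference of −0.59 ± 0.09 (limma adjusted p = 2.9e-06) without overlap, and its other probe set differed by −0.16. At CDDO-Im 10, Hsd17b4 differed by −0.30 ± 0.09, a call lost without replicate 2 of either genotype, and its other probe set by +0.12. At CDDO-Im 30 Pex11a was lower by 0.67 ± 0.23, Decr2, the peroxisomal dienoyl-CoA reductase, by 0.54 ± 0.20, Acaa1a, a peroxisomal thiolase, by 0.47 ± 0.17 and Acox2, the branched-chain acyl-CoA oxidase, by 0.44 ± 0.14. Acaa1a overlapped between the genotypes, and its probe set can bind the near-identical Acaa1b. Decr2 lost its call without any of 6 of the 8 mice, Acaa1a without any of 4 and Pex11a without null replicate 2 or 4 or Wt replicate 1, while Acox2 and Hsd17b4 kept theirs.

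Some other values differed between the genotypes at these doses. The clock scores lay at −3.01 to −2.43 in null and −2.99 to −2.48 in Wt mice at CDDO-Im 3, at −2.55 to +2.33 and +2.30 to +3.99 at CDDO-Im 10, and at −3.19 to −2.77 and −2.52 to −2.26 at CDDO-Im 30. The only measured marker of exocrine pancreas, Cela1, was higher in null mice at CDDO-Im 10 and 30, and the summed pancreas markers reached 15.60 in 1 null CDDO-Im 30 mouse against 8.72 to 9.05 in Wt mice. Marco, 1 of 6 Kupffer markers, differed between null and Wt mice by −1.96, −2.21 and −3.20 at the 3 doses, lower in null mice each time, and 1 other Kupffer marker was higher at CDDO-Im 30. Of the hepatocyte markers 1 of 7 at CDDO-Im 10 and 2 of 7 at CDDO-Im 30 were higher in null mice, against 11.2% and 31.7% of all genes. The sum of the 5 endothelial markers lay at 11.90 to 12.43 in null and 11.80 to 11.96 in Wt mice at CDDO-Im 3, at 12.09 to 12.34 and 11.55 to 11.69 at CDDO-Im 10, and at 12.22 to 12.44 and 11.62 to 11.85 at CDDO-Im 30, where 0, 1 and 2 of the 4 measured were higher in null mice. The summed lymphocyte and neutrophil markers overlapped between the genotypes at CDDO-Im 3. They lay at 6.44 to 7.25 in null and 5.88 to 6.34 in Wt mice at CDDO-Im 10. At CDDO-Im 30 they lay at 7.32 to 8.31 and 8.42 to 9.71. The summed stellate cell markers also overlapped at CDDO-Im 3. They lay at 13.49 to 13.69 in null and 13.23 to 13.35 in Wt mice at CDDO-Im 10. At CDDO-Im 30 they lay at 13.42 to 13.62 and 13.24 to 13.35. The part of these cells and of the clock in the differences was not tested.

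**Figure D2:**
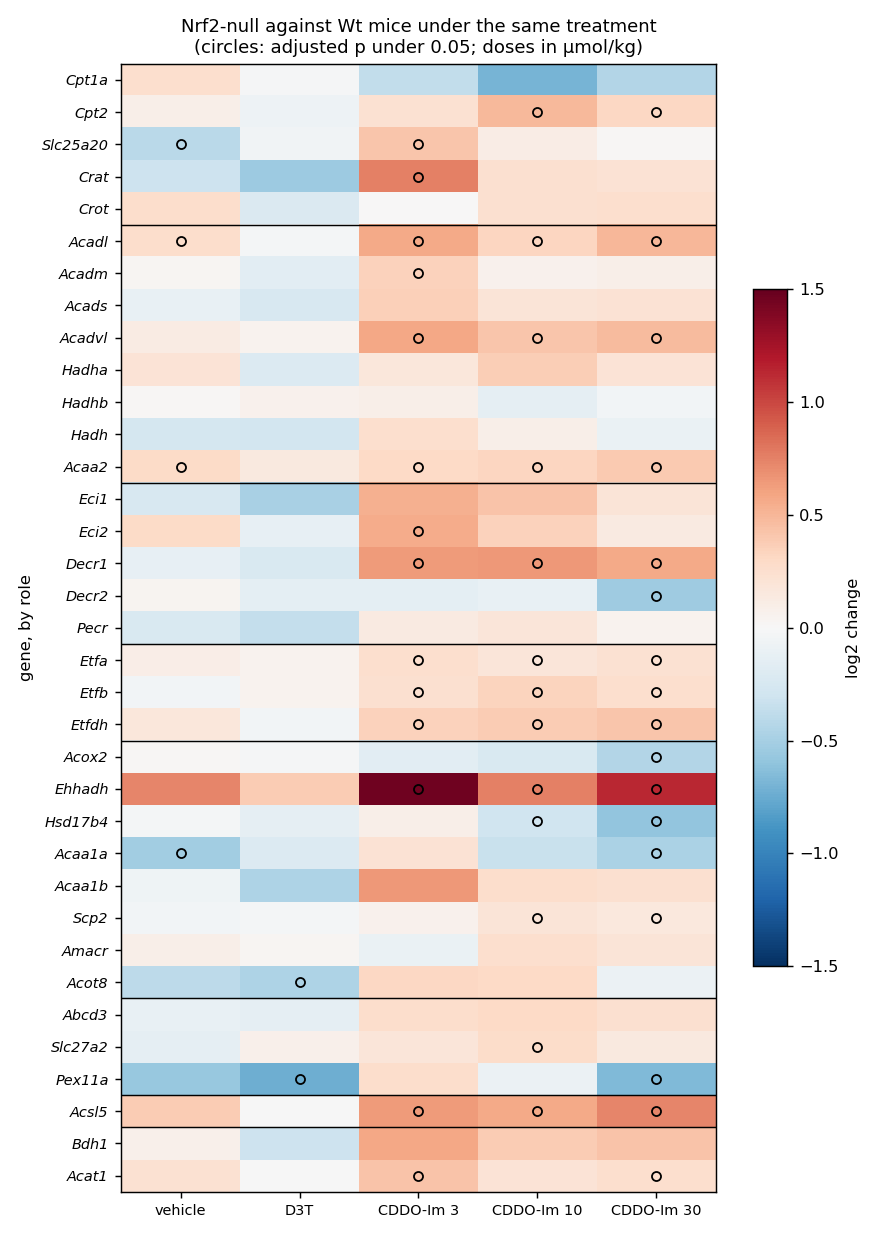
Differences of the Nrf2-null from the Wt mean (log2) for the 35 members, rows by role and columns by treatment, red higher in null and blue lower; circles mark a limma adjusted p under 0.05. The CDDO-Im 3 column holds 14 circles, all higher in null mice, and the D3T column 2, both lower.

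Under vehicle the genotypes differed in 4 of the 35 genes. In null mice 2 members were higher, Acadl by 0.26 ± 0.07 (limma adjusted p = 0.012) and Acaa2 by 0.29 ± 0.08 (limma adjusted p = 0.021), and 2 were lower, Acaa1a by 0.52 ± 0.17 and Slc25a20 by 0.41 ± 0.10 (limma adjusted p = 0.0059). The shares of all genes were 5.85% higher and 4.97% lower. With the limma fit to the vehicle mice alone no member passed, against 2.52% of all genes, and 9 members had an unadjusted p under 0.05, against 18.5% of all genes. Slc25a20, the carnitine-acylcarnitine translocase, read 12.78, 12.82, 12.99 and 12.87 in Wt mice and 12.74, 12.12, 12.60 and 12.35 in null mice, without overlap. Acadl read 12.85 to 13.02 in Wt mice and 13.37, 13.12, 13.14 and 13.14 in null mice. Its call was lost without replicate 1 of the null mice (adjusted p = 0.053), whose clock score was +3.08 against −3.31 to −2.46 in the other 3. The call of Acaa1a, which overlapped, was lost without any of 5 of the 8 mice, that of Acaa2 without null replicate 3 or Wt replicate 1, and that of Slc25a20 held.

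Slc25a20 was also the member that rose in null mice. It read 13.07, 12.77, 12.86 and 12.86 under D3T and 12.90, 12.96, 12.99 and 12.97 under CDDO-Im 3, all above the null vehicle mice. It rose by 0.44 ± 0.10 under D3T (limma adjusted p = 0.0082) and by 0.50 ± 0.10 under CDDO-Im 3 (limma adjusted p = 0.0090). The second call was lost without replicate 2 of the null vehicle mice (adjusted p = 0.060). In Wt mice Slc25a20 read 12.48, 12.53, 12.44 and 12.72 at CDDO-Im 3, all below the vehicle mice, and did not pass the test. Its second probe set was 0.18 and 0.06 above the null vehicle mean under D3T and CDDO-Im 3, and 0.29 below the Wt vehicle mean at CDDO-Im 3.

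The difference in response between genotypes at CDDO-Im 3 was 0.82 ± 0.14 for Slc25a20 (limma adjusted p = 0.00048), the response of null mice minus that of Wt mice. In all, 5 members passed this test and all were higher, against 0.835% of genes higher and 0.887% lower: Slc25a20, Crat (1.06 ± 0.29), Decr1 (0.76 ± 0.19), Hadh (0.51 ± 0.14), the short-chain hydroxyacyl-CoA dehydrogenase, and Acadvl (0.45 ± 0.09). The calls of Slc25a20 and Acadvl held without any 1 of the 16 mice. Those of Hadh, Crat and Decr1 were lost without 15, 12 and 12 of the 16 mice in turn. Without replicate 1 of the null vehicle group 11 members were higher, against 1.77% of all genes higher and 1.81% lower. Leaving out each of the 16 mice in turn gave 2 to 11 members, so this count was the highest. Fitted to the 4 groups alone, 3 members passed, against 0.939% of all genes.

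At CDDO-Im 10 the response differed for 5 members, and for each the response was the higher in null mice. They were Decr1 (0.77 ± 0.19), Acot8 (0.69 ± 0.20), a peroxisomal acyl-CoA thioesterase, Slc25a20 (0.52 ± 0.14), Slc27a2 (0.42 ± 0.11) and Etfb (0.38 ± 0.09). The shares of all genes were 3.70% higher and 1.70% lower. Fitted to the 4 groups alone, 1 member passed, against 2.74% of all genes. Of the 5, Acot8 lost its call without any of 7 and Slc25a20 without null vehicle replicate 2, Wt CDDO-Im 10 replicate 1 or Wt vehicle replicate 3. At CDDO-Im 30 the response of 4 members was higher in null mice: Decr1 (0.70 ± 0.19), Slc25a20 (0.43 ± 0.14), Acadvl (0.35 ± 0.09) and Etfb (0.30 ± 0.09). The response of 1 was lower, Hsd17b4 (−0.56 ± 0.12, limma adjusted p = 0.0032). The shares of all genes were 10.1% and 1.78%. Slc25a20 and Etfb lost their calls without any of 10 and any of 8 of the 16 mice. With arrays centred on their medians only Hsd17b4 passed, and the share of higher calls over all genes went from 85% to 48.3%. Of all genes, 3.07% were then higher and 3.29% lower. The 3 tests of response share their vehicle mice. Slc25a20 had means of 12.46 in null and 12.86 in Wt mice under vehicle, and of 12.63 and 12.61 at CDDO-Im 30. Its response thus differed at CDDO-Im 30 while its level there was nearly the same in both genotypes. With the mean of a gene's kept probe sets, Decr1 lost its call in the response at all 3 doses, and Slc25a20 at CDDO-Im 10 and 30.

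In null mice no member passed the limma test against vehicle at CDDO-Im 10 or CDDO-Im 30, where 0.0722% and 0.175% of all genes did, and 13 and 2 members had an unadjusted p under 0.05, against 12.9% and 10.1% of all genes. At CDDO-Im 10, 30 of the 35 lay above the vehicle mean with a median of +0.19, against +0.01 for all genes. Without replicate 1 of the null vehicle group, 8 members rose at CDDO-Im 10, from Acaa1a (0.59 ± 0.18) and Decr1 (0.57 ± 0.14) to Etfb (0.25 ± 0.07), against 3.59% of all genes higher and 2.89% lower. Leaving out each of the 8 mice in turn gave 0 to 8 members, so this count was the highest. The mouse left out had a clock score of +3.08, and the null CDDO-Im 10 mice had −2.55 to +2.33. The part of the clock was not tested. Leaving out the same mouse raised the members called at CDDO-Im 3 from 1 to 5, all higher, against 1.61% of all genes higher and 1.94% lower. Each mouse left out in turn gave 0 to 5 there. At CDDO-Im 3 the shares of all genes were 0.309% higher and 0.464% lower, and the 1 member was Slc25a20. With the limma fit to the compared groups alone 0 genes passed in null mice under CDDO-Im 3 or D3T, while 8 and 3 members had an unadjusted p under 0.05, against 8.99% and 8.33% of all genes.

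**Figure D3:**
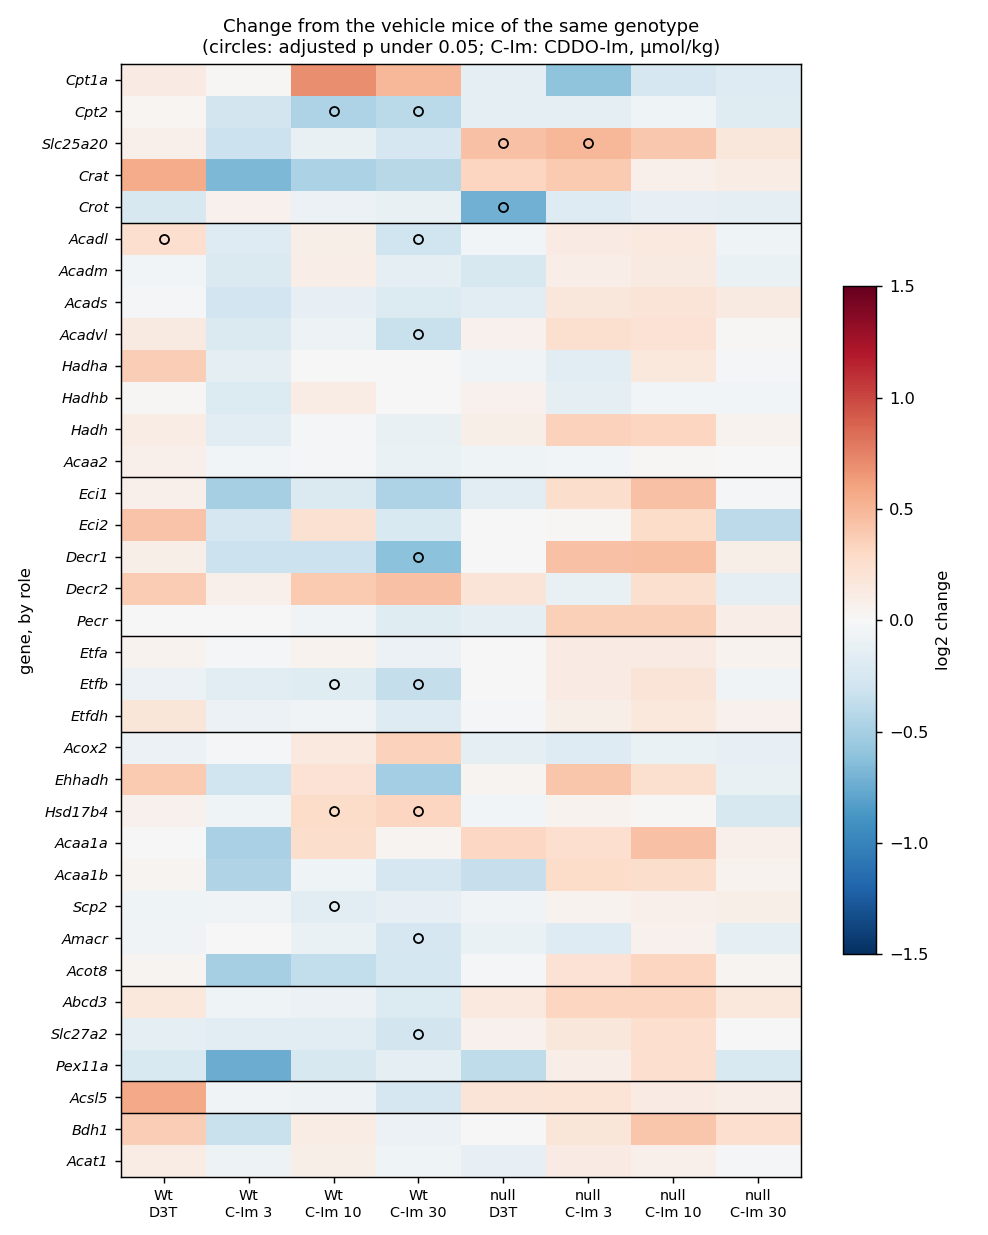
Changes from the vehicle mean of the same genotype (log2) for the 35 members, rows by role and columns by genotype and treatment, red higher and blue lower; circles mark a limma adjusted p under 0.05. The Wt CDDO-Im 30 column holds 8 circles, 7 of them lower, and the null CDDO-Im 10 and 30 columns none.

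Under D3T few members passed the test in either genotype, about as few as among genes at large. In Wt mice Acadl alone passed, with 2.64% of all genes higher and 1.59% lower. It read 13.13, 13.26, 13.24 and 13.06 under D3T, above the 12.85 to 13.02 of the vehicle mice, and rose by 0.25 ± 0.07 (limma adjusted p = 0.035). With the fit to those 2 groups alone 2 members passed, against 5.34% of all genes. The call of Acadl was lost without any of 6 of the 8 mice (adjusted p up to 0.13). The median of the members was +0.08 and 24 of 35 lay above the vehicle mean, while 50.4% of all genes did. In null mice Slc25a20 rose, as given above, and Crot, the peroxisomal carnitine octanoyltransferase, fell by 0.72 ± 0.17 (limma adjusted p = 0.012), with shares of 2.27% higher and 1.83% lower over all genes. Crot read 14.55, 14.54, 15.45 and 14.88 under vehicle and 14.27, 14.58, 14.35 and 13.32 under D3T, which overlapped, and the call was lost without replicate 3 of the vehicle mice (adjusted p = 0.068). The response to D3T differed between the genotypes for no member by limma, with 3 members and 13.2% of all genes at an unadjusted p under 0.05, and for 0.0722% of all genes by the adjusted p.

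Replicate 4 of the null D3T group weighed on these values. Acaa1b, a peroxisomal thiolase, read 13.51 in it against 15.52 to 15.85 in the other 3 mice, Acsl5 read 12.36 against 13.82 to 14.03 and Hadh 14.28 against 14.95 to 15.05. Its mean over the 35 members was 12.27 against 12.69 to 12.84, its clock score was +1.16 against −1.96 to −1.11, and its summed Kupffer markers, at 11.57, were the lowest of the group. Without this mouse 5 members passed in null mice under D3T: Acsl5 rose by 0.59 ± 0.11, Slc25a20 by 0.45 ± 0.11, Abcd3, a peroxisomal importer of acyl-CoA, by 0.38 ± 0.10 and Hadh by 0.27 ± 0.07, while Crot fell by 0.45 ± 0.13 (limma adjusted p = 0.037). The shares of all genes were then 3.95% higher and 2.28% lower. The median of the members then went from −0.03 to +0.09. Leaving out each of the 8 mice of this comparison in turn gave 1 to 5 members, so this count was the highest. The mouse was picked out by its low values of these same members, so their mean in the group must rise without it. The calls without it are therefore a description.

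Between the genotypes under D3T, 2 members were lower in null mice, Pex11a by 0.73 ± 0.23 (limma adjusted p = 0.041) and Acot8 by 0.46 ± 0.14 (limma adjusted p = 0.030), and none higher. The shares of all genes were 4.72% lower and 4.45% higher. Both members overlapped between the genotypes. Both calls were lost without replicate 4 of the null mice, at limma adjusted p of 0.19 and 0.14. Acot8 also lost its call without Wt replicate 2 or 3, and Pex11a without null replicate 3 or Wt replicate 2, 3 or 4. With the limma fit to those 2 groups alone no member passed, against 1.54% of all genes, and 3 had an unadjusted p under 0.05, against 18.5% of all genes. In the model over all groups without null replicate 4, Ehhadh was higher in null mice by 0.80 ± 0.20, Acsl5 by 0.39 ± 0.11 and Acaa2 by 0.26. Of all genes, 3.39% were then higher and 3.42% lower. Leaving out each of the 8 mice in turn gave 0 to 3 members higher, so these 3 were the highest count.

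**Figure D4:**
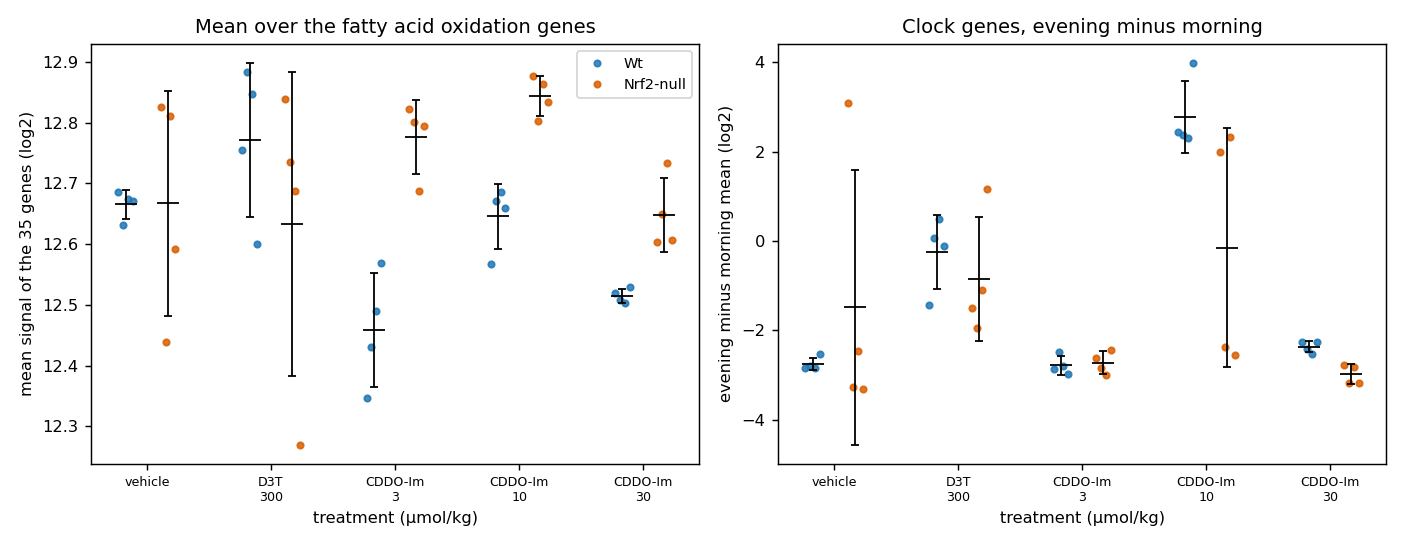
Mean log2 level of the 35 members per mouse (left) and the evening minus morning clock score per mouse (right), by genotype and treatment; points are mice and black marks the mean ± SD of 4. The member means of the Wt CDDO-Im 30 mice lie between 12.50 and 12.53 and those of the null CDDO-Im 3 mice between 12.69 and 12.82, and null vehicle replicate 1 and null D3T replicate 4 stand apart from their groups in clock score.

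D3T at 300 µmol/kg and CDDO-Im at 10 µmol/kg were the doses that the study set side by side. In Wt mice 6 members were lower under CDDO-Im 10 than under D3T and none higher, with 13.8% of all genes lower and 4.87% higher. Crat differed most, at 6.70, 6.43, 7.04 and 7.19 under CDDO-Im 10 and 8.02, 7.90, 8.13 and 7.41 under D3T, a difference of −1.02 ± 0.20 (limma adjusted p = 0.00087) without overlap. Acsl5 read 12.90, 13.01, 12.94 and 12.78 against 13.68, 13.67, 13.56 and 13.29, a difference of −0.64 ± 0.20. Cpt2 was lower by 0.48 ± 0.11, Decr1 and Acot8 by 0.41 ± 0.14 each and Acadvl by 0.21 ± 0.06. The calls of Crat and Cpt2 held without any 1 mouse. Those of Decr1 and Acot8 were lost without any of 6 and any of 5 of the 8 mice, that of Acsl5 without CDDO-Im 10 replicate 4 or D3T replicate 1 or 2, and that of Acadvl without D3T replicate 3. The clock scores did not overlap, at +2.30 to +3.99 under CDDO-Im 10 and −1.43 to +0.49 under D3T, and their part was not tested. With arrays centred, 3 members were lower (Crat, Acsl5 and Cpt2) and 1 higher (Hsd17b4), and the share of higher calls over all genes went from 26.1% to 44.6%. Of all genes, 9.14% were then lower and 7.36% higher.

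Between the higher doses in Wt mice, 5 members were lower at CDDO-Im 30 than at CDDO-Im 10 and none higher, with 14.2% of all genes lower and 5.25% higher. In the fit to those 2 groups alone 8 were lower and none higher, against 13.9% of all genes lower and 6.22% higher. The 5 of the model over all groups were Ehhadh (−0.72 ± 0.26), Eci2 (−0.45 ± 0.15), Acadl (−0.39 ± 0.07, limma adjusted p = 0.00021), Acadvl (−0.26 ± 0.06) and Acadm (−0.25 ± 0.08). Acadl read 12.90, 13.03, 13.04 and 13.07 at CDDO-Im 10, all above the 12.53 to 12.67 of CDDO-Im 30. The call of Ehhadh was lost without any of 6 mice, that of Eci2 without any of 4 and that of Acadm without CDDO-Im 30 replicate 2. With arrays centred only Acadl passed, lower by 0.27 ± 0.07, and the share of higher calls over all genes went from 27% to 58.1%. Of all genes, 7.54% were then lower and 10.4% higher. The clock scores of these groups did not overlap either, at +2.30 to +3.99 and −2.52 to −2.26.

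**Figure D5:**
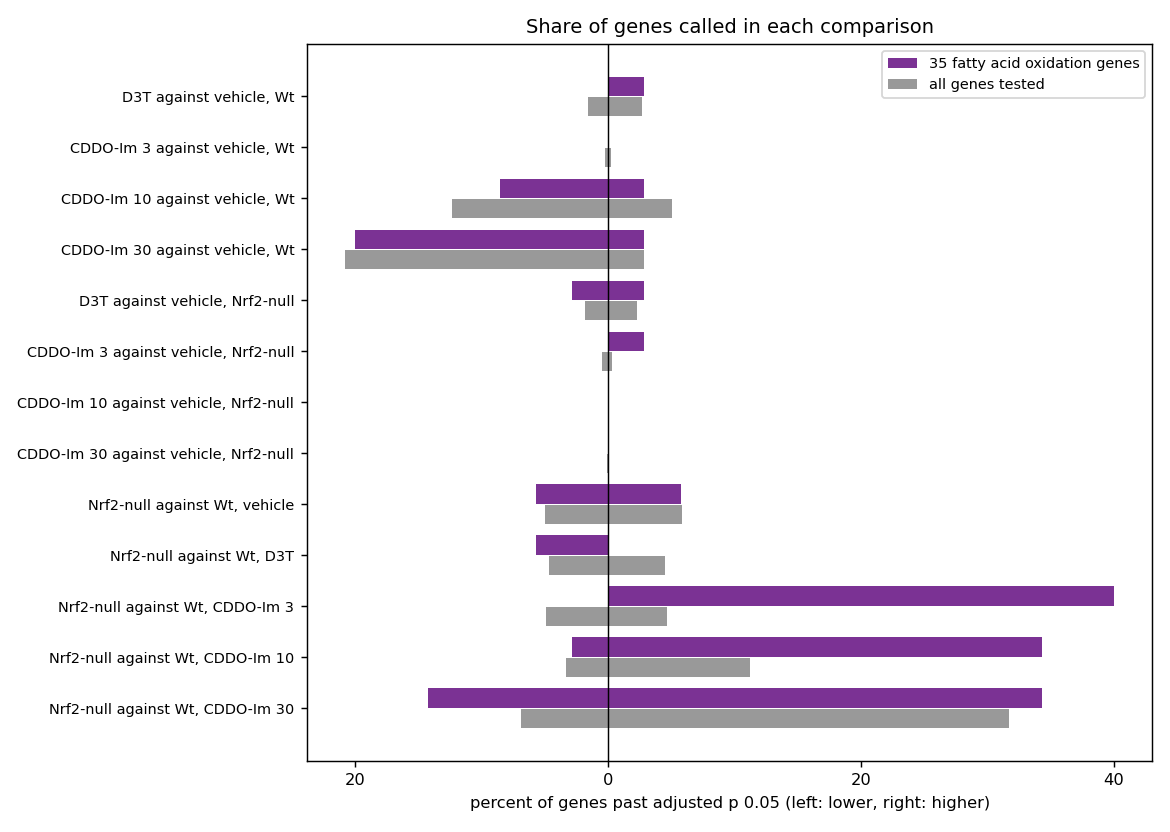
Share of genes past the limma test (percent, lower to the left and higher to the right of 0) among the 35 members and among all 9695 genes, for 13 comparisons. Between the genotypes at CDDO-Im 3 the bar of the members to the right is 14 of 35 genes beside 4.67% of all genes, and at CDDO-Im 30 it is 12 of 35 beside 31.7%.

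By role, the electron transfer members passed most evenly: 3 of 3 were higher in null mice at each CDDO-Im dose, and none passed under vehicle or D3T. With arrays centred on their medians, all 3 passed at CDDO-Im 3, Etfb and Etfdh at CDDO-Im 10 and none at CDDO-Im 30. Etfb alone of them passed a test of difference in response. Of the 8 genes of the mitochondrial spiral, 4, 3 and 3 were higher in null mice at CDDO-Im 3, 10 and 30. Of the 5 carnitine shuttle genes, 2, 1 and 1 were. The shares of all genes higher in null mice at these doses were 4.67%, 11.2% and 31.7%. Over all 19 comparisons 26 members, or 74.3%, passed at least once, against 67.6% of all genes, led by Acadvl and Decr1 with 8 comparisons each and Acadl, Etfb and Slc25a20 with 7 each. The 9 that passed in none were Cpt1a, Acads, Hadha, Hadhb, Eci1, Pecr, Acaa1b, Abcd3 and Bdh1. They include both subunits of the trifunctional protein, Hadha and Hadhb, whose genes lie head to head with starts 272 bases apart, and Bdh1, the 3-hydroxybutyrate dehydrogenase.

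Of 39 listed genes of fatty acid oxidation outside the group, 31 were measured. In Wt mice 7 rose and 1 fell under D3T, led by the acyl-CoA thioesterase Acot3 (+4.03), the peroxisomal importer Abcd2 (+3.20) and the ω-hydroxylase Cyp4a14 (+2.13). At CDDO-Im 10, 4 rose, among them Acot3 (+2.21), Abcd2 (+2.15) and Cyp4a14 (+1.51), and at CDDO-Im 30, 3 fell and 1 rose, with Cyp4a14 at −3.73, Acot1 at −1.58 and the fatty acid transporter Cd36 at +0.91. At CDDO-Im 3 none of the 31 passed by limma in Wt mice. In null mice against Wt mice 7 of the 31 were higher and 2 lower at CDDO-Im 3, 3 and 1 at CDDO-Im 10, and 11 and 1 at CDDO-Im 30, where Cyp4a14 differed by +5.15 ± 0.50, Acot3 by +3.48 ± 0.65 and Abcd2 by +3.01 ± 0.60. Under vehicle 5 were higher and 2 lower, with Abcd2 at +3.26, Acot3 at +2.19 and Cyp4a14 at +2.09. Of all genes in Wt mice, 2.64% rose and 1.59% fell under D3T, and 0.474% passed at CDDO-Im 3. At CDDO-Im 10 5.06% rose and 12.4% fell, and at CDDO-Im 30 2.81% and 20.8%. In null against Wt mice 4.67% of all genes were higher and 4.93% lower at CDDO-Im 3, and 11.2% and 3.33% at CDDO-Im 10. At CDDO-Im 30 the shares were 31.7% and 6.87%, and under vehicle 5.85% and 4.97%.

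Of 16 regulators of these genes, 15 were measured. In Wt mice 4 rose and 1 fell at CDDO-Im 10, led by Lpin1, a coactivator and phosphatidate phosphatase, with 2.55 ± 0.48, the coactivator Ppargc1b with 1.16 ± 0.37 and the receptor Ppara with 1.03 ± 0.22. Lpin1 and Ppargc1b were lower at CDDO-Im 30 than at CDDO-Im 10, with differences of −1.75 and −1.69. Ppara was 1.09 ± 0.22 higher in null than in Wt mice under vehicle, and its response was lower in null mice, with differences of −1.48 at CDDO-Im 3, −1.61 at CDDO-Im 10 and −1.33 at CDDO-Im 30. Of 11 measured genes that fasting or PPARα induces, none rose and 3 fell in Wt mice at CDDO-Im 10: Pdk4, the kinase that inhibits pyruvate dehydrogenase (−2.90 ± 0.66), and the lipid droplet proteins Plin5 (−1.14 ± 0.19) and Plin2 (−0.77 ± 0.17). Of all genes, 5.06% rose and 12.4% fell in Wt mice at CDDO-Im 10. The clock scores of these mice did not overlap those of the vehicle mice, and the part of the clock was not tested.

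Of 18 other mitochondrial proteins measured, 6 fell and none rose in Wt mice at CDDO-Im 30, led by the citrate cycle enzyme Idh3a (−0.40 ± 0.13), the mitochondrial transcription factor Tfam (−0.37 ± 0.07) and the respiratory subunit Cox4i1 (−0.35 ± 0.05). Between the genotypes 2 of the 18 were higher in null mice at CDDO-Im 3, 3 at CDDO-Im 10 and 8 at CDDO-Im 30, and none lower. Of 15 peroxisome biogenesis genes measured, 1 rose and 2 fell in Wt mice at CDDO-Im 30, with catalase (Cat) at +0.31 ± 0.07, the import receptor Pex5 at −0.63 ± 0.13 and Pex13 at −0.23 ± 0.08. Of all genes, 2.81% rose and 20.8% fell in Wt mice at that dose. The shares of all genes higher in null mice were 4.67%, 11.2% and 31.7% at CDDO-Im 3, 10 and 30.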

How the data were processed

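Liver RNA of 40 mice was hybridised to Affymetrix Mouse Genome arrays, 1 per mouse, 4 per group. The deposited values are log2 expression levels that the authors computed with GCRMA, a background correction and normalization that uses probe sequence. The version of GCRMA, and which arrays it was run on at once, are not stated in what was read here. Of 45037 probe sets, 34945 had 1 gene symbol in the platform annotation, 932 several and 9160 none, and 34741 matched a RefSeq gene. After a minimum of log2 4 on at least 3 arrays of a group, 18935 probe sets remained, of which 16472 had 1 symbol and stood for 9695 genes, each by its probe set of highest mean.

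One limma model (limma 3.58.1 in R 4.3.3, statmod 1.5.0) was fitted over the 10 groups with a variance trend and robust variances, with Benjamini-Hochberg adjustment over all 9695 genes and a threshold of 0.05. It was tested on simulated data. An adjusted p without another name is from this model. Tables and figures were made with Python 3.11.15, numpy 2.4.6, pandas 2.3.3 and matplotlib 3.10.9. Differences in response are the null minus the Wt change. The number of arrays limits the precision. The labels tie no mouse to a litter. A p-value of the main model sets a difference against the spread between mice within all 10 groups, adjusted by the variance trend.

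The members, roles and lists were chosen with earlier results of these data known. The genotype comparisons under D3T and CDDO-Im and the difference in response to CDDO-Im 3 were added after seeing the data. By the rule for named genes, each comparison names up to 6 called members in each direction by size of change with errors, up to 4 members per role have the values of their mice, and other lists name up to 3 called genes per comparison. Where more members are named, or values are given without a call, this was done after their values were seen. Alternatives were the fit to the compared groups alone, array median centring, quantile normalization, no expression minimum, the mean of a gene's probe sets, no trend or robust variances, a replicate block, an exact Wilcoxon test with a 1.5-fold minimum, and leaving out each mouse. Proteins and the gene Acsl1 were not analysed here.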

Additional observations from a re-analysis of the deposited data

Results flagged for a closer look

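A mouse stood apart from the other 3 of its group in 12 of the 350 pairs of member and group, where its gap to the nearest mouse passed Dixon's critical value as a share of the range of the group. Chance gives about 1 in 20. In 4 of the 12 it was replicate 4 of the null D3T group, the lowest each time, with a gap of 0.878 for Hadh, 0.853 for Etfa, 0.857 for Acaa1b and 0.878 for Acsl5. Replicate 1 of the null vehicle group was the highest for Acadl (0.909) and Etfb (0.974). In Wt mice, Acads had replicate 1 highest under vehicle (0.858), Pex11a replicate 4 highest at CDDO-Im 3 (0.875) and Decr1 replicate 3 highest at CDDO-Im 10 (0.881). At CDDO-Im 30 in Wt mice Acadl had replicate 2 lowest (0.841) and Acadvl replicate 1 highest (0.841). Ehhadh had replicate 4 lowest in null mice at CDDO-Im 3 (0.95).

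The response to CDDO-Im differed between the genotypes by the interaction term of limma, with adjusted p-values as given in the report. At CDDO-Im 3 the null minus Wt response was 0.82 for Slc25a20, 1.06 for Crat, 0.45 for Acadvl, 0.51 for Hadh and 0.76 for Decr1. At CDDO-Im 10 it was 0.52 for Slc25a20, 0.77 for Decr1, 0.38 for Etfb, 0.69 for Acot8 and 0.42 for Slc27a2. At CDDO-Im 30 it was 0.43 for Slc25a20, 0.35 for Acadvl, 0.70 for Decr1, 0.30 for Etfb and −0.56 for Hsd17b4.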

How the results depend on the processing

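Of the 92 member changes past the threshold, recomputed 644 times under the alternatives other than leaving out a mouse, 530 stayed past it in the same direction, 110 lost it and 4 reversed, all 4 of Scp2. With the mean of its probe sets Scp2 was 0.26 (Wt CDDO-Im 10 against vehicle), −0.32 (null against Wt, CDDO-Im 10) and −0.48 (null against Wt, CDDO-Im 30), and with centred arrays the last, Scp2 in null against Wt mice at CDDO-Im 30, was −0.069. Leaving out a mouse gave 856 recomputed changes, of which 655 stayed past the threshold, 201 lost it and 0 reversed.

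The numbers of members called moved as follows. With the exact Wilcoxon test and a 1.5-fold minimum, which has no form for differences in response, there were 2 for CDDO-Im 10 against D3T, 1 each for Wt CDDO-Im 10, Wt CDDO-Im 30 and CDDO-Im 30 against 10, 3, 4 and 4 between the genotypes at CDDO-Im 10, 3 and 30, and 0 for D3T in each genotype and between the genotypes under vehicle and D3T. With the fit to the compared groups alone there were 9 for Wt CDDO-Im 10, 21 for Wt CDDO-Im 30, 8 for CDDO-Im 30 against 10, 2 for Wt D3T, 1 and 3 for the differences in response at CDDO-Im 10 and 3, and 0 for null CDDO-Im 3, null D3T and the genotypes under vehicle and D3T. Without the expression minimum there were 2 for Wt CDDO-Im 10, 2 for the difference in response to CDDO-Im 3, and 0 for Wt D3T and for the genotypes under D3T. Without trend and robust variances there were 2 for Wt CDDO-Im 10. With arrays centred there were 4 for null CDDO-Im 3, 1 for CDDO-Im 30 against 10, 4 for Wt CDDO-Im 30, 1 for the difference in response to CDDO-Im 30, and 8, 11 and 4 between the genotypes at CDDO-Im 10, CDDO-Im 30 and D3T. With the mean of probe sets there were 0 for null CDDO-Im 3, 1 for null D3T, and 2 and 3 for the differences in response at CDDO-Im 3 and 30, and quantile normalization gave 3 for the last. The cause was not tested.

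Leaving out each mouse gave 0 to 2 for Wt D3T, 0 to 2 for Wt CDDO-Im 3, 1 to 5 for Wt CDDO-Im 10, 7 for Wt CDDO-Im 30, 1 to 5 for null D3T, 0 to 5 for null CDDO-Im 3, 0 to 8 for null CDDO-Im 10, 2 to 5 between the genotypes under vehicle, 0 to 4 under D3T, 9 to 14, 9 to 12 and 13 to 16 at CDDO-Im 3, 10 and 30, 2 to 11, 3 to 6 and 3 to 7 for the differences in response at those doses, 3 to 9 for CDDO-Im 10 against D3T and 3 to 5 for CDDO-Im 30 against 10.

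Replicate numbers did not pair the mice: deviations of same-numbered mice correlated at −0.32 to 0.37 (median 0.00 over 180 pairs, and 0.00 over 540 pairs of other numbers). With a replicate block the members called were 1, 0, 6 and 8 for Wt D3T and CDDO-Im 3, 10 and 30, 2 and 1 for null D3T and CDDO-Im 3, 4, 2, 14, 13 and 17 between the genotypes under vehicle, D3T and CDDO-Im 3, 10 and 30, 4, 7 and 6 for the differences in response at the 3 doses, 7 for CDDO-Im 10 against D3T and 5 for CDDO-Im 30 against 10.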
